A study of Drosophila melanogaster with 35 samples.

Results

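The potassium channel genes described here are Sh, Shab, Shal, Shaw, SK, slo, eag, sei, Elk and KCNQ, 10 of the 14279 genes in the expression table of this Drosophila study. They were chosen by gene symbol, with earlier results of these data known, and all 10 were found. Between them they encode the pore-forming subunits of the voltage-gated families (Sh, Shab, Shal and Shaw), of the calcium-activated families (slo and SK), of the eag family (eag, sei and Elk) and of the KCNQ family. The study asked how human TREM2 and TYROBP, made in glia, change fly heads that also make human Aβ42 in neurons or human tau in the eye.

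RNA was measured in 35 libraries from adult heads of flies aged 1 week, in 12 genotypes. With the pan-neuronal driver elav-GAL4 there were 18 libraries, 3 for each of 6 genotypes. These were TREM2WT/TYROBP, TREM2R47H/TYROBP, Aβ42, Aβ42/TREM2WT/TYROBP, Aβ42/TREM2R47H/TYROBP and the control, which carried elav-GAL4 and Repo-LexA alone. With the eye driver GMR-GAL4 there were 17 libraries, 3 for each genotype except 2 for tau. Those genotypes were TREM2WT/TYROBP, TREM2R47H/TYROBP, tau, tau/TREM2WT/TYROBP, tau/TREM2R47H/TYROBP and the control with GMR-GAL4 and Repo-LexA alone. Every fly carried Repo-LexA, which drives the LexAop2 transgenes in glia. Each genotype pooled the heads of many flies, and no source used here says whether its libraries came from separate pools, so that p-values measure the spread between libraries, which may be technical.

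Potassium channels let potassium leave the neuron after excitation. In this way they end the action potential, set the resting potential and limit how often a neuron fires. Several fly genes of the group were named for behaviour, since flies with mutant Sh, eag or Hk shake their legs under ether and flies with mutant sei are paralysed by heat. Loss of Sh function also shortens sleep in flies.

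The values are the authors' normalised CPM, read counts scaled to library size, on the log2 scale, which had been adjusted for RIN, a score of RNA integrity. They are given here at equal RIN, marker sums included, which moved a channel gene by at most 0.18 in any library. Fold changes, standard errors and adjusted p-values come from limma fitted to all genes and all 35 libraries, with Benjamini-Hochberg adjustment. A gene was called changed when its adjusted p was below 0.05 and its fold change above 1.2, which is 0.26 on the log2 scale. All comparisons of a driver share the same 3 control libraries, so that they are not independent of each other. The smallest p that an exact permutation test allows for 3 libraries against 3 is 0.1.

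Before the channel genes are compared, the sex markers of the libraries have to be given. The study's methods describe male flies, but the labels name a Y chromosome for elav genotypes only. Summed over the yolk protein genes Yp1, Yp2 and Yp3, which are markers of females, the level at equal RIN was 15.89 to 16.54 in GMR libraries, against 5.57 to 8.30 in elav libraries. Summed over roX1 and roX2, which are markers of males, it was 5.48 to 5.97 in GMR libraries, against 11.62 to 11.91 in elav libraries. The groups did not overlap in either marker set, so sex markers, driver and strain cannot be told apart where GMR and elav libraries are compared. Within elav libraries, control replicates 1 and 2 stood apart at equal RIN, with a yolk protein sum of 8.30 and 8.16. Control replicate 3 had 5.83 and the 15 libraries with a transgene 5.57 to 5.95. As deposited, control replicates 1, 2 and 3 had 8.752, 6.709 and 4.505, against 5.283 to 7.509 with a transgene. On that scale replicate 2 lay within the range of the libraries with a transgene and replicate 3 below it. All 3 yolk protein genes were called lower in all 5 elav comparisons with the control (log2 fold changes of -3.31 to -1.16). Results against the elav control are also given below without control replicates 1 and 2. Within GMR libraries the yolk protein sum spread far more on the deposited scale (11.05 to 19.87) than at equal RIN. In TREM2R47H/TYROBP replicates 2 and 3 it was 11.47 and 11.05 as deposited, against 16.36 to 16.92 in GMR control libraries, and 16.24 and 16.29 at equal RIN, against 15.89 to 15.97. Neuronal markers were present in every library, with a summed level of 11.26 to 11.74. RIN was 5.6 to 7.5, and the mean of the elav control (6.53) was below those of the other elav genotypes (6.77 to 7.03).

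All 10 channel genes were well above the low end of the table. Levels per kilobase use the length of all annotated exons of a gene, not of the transcripts made. Their order thus depends on the annotation, which has 17 transcripts for Sh and 3 for sei. Per kilobase of exon, the order of mean levels was slo (5.81), Shal (4.74), sei (4.12), Shaw (3.81), Sh (3.67), Shab (3.66), SK (3.62), Elk (3.41), KCNQ (3.15) and eag (2.78), in log2 CPM per kilobase. The gene slo encodes the large-conductance channel that calcium and voltage open together. It stood above Shal, which encodes a channel of the Kv4 type with a fast transient current, in 35 of 35 libraries, by 1.07 ± 0.07 (SD). The order of Sh and Shab differed between drivers. Sh was above Shab in 17 of 18 elav libraries, by 0.14 ± 0.09, and below it in 16 of 17 GMR libraries, by -0.11 ± 0.08. Shab and SK were not separated either, with Shab higher in 21 of 35 libraries and a difference of 0.04 ± 0.11. Shaw exceeded Sh in 13 of 18 elav libraries, by 0.06 ± 0.15, which is within the spread, and in 17 of 17 GMR libraries, by 0.21 ± 0.06. The lowest gene, eag, was below KCNQ in 33 of 35 libraries, with a difference of 0.37 ± 0.20.

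**Figure D1:**
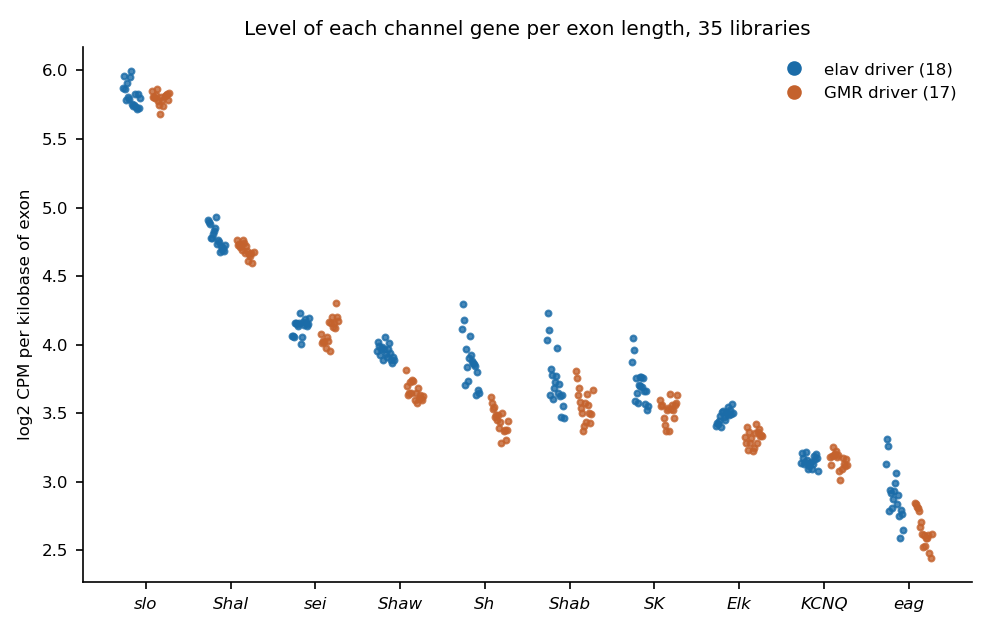
Level of each potassium channel gene in log2 CPM per kilobase of exon (vertical axis), with 1 point per library, for 18 elav libraries (blue) and 17 GMR libraries (orange). Genes are ordered by their mean, from slo at 5.81 to eag at 2.78, and the points of Sh, Shab and SK cover the same range.

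How far the genes varied across genotypes differed between them. The means of the 12 genotypes spanned 0.84 for Sh, 0.72 for eag, 0.70 for Shab, 0.55 for SK and 0.38 for Shaw. For Elk, Shal, sei, slo and KCNQ they spanned 0.17 to 0.26. The SD between libraries of the same genotype was 0.03 to 0.10 for the 10 genes.

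Among elav flies, the levels of Sh, Shab, SK and eag were lower in every genotype with a transgene than in the control, and no channel gene was called higher in any of the 5 comparisons. All 15 libraries with a transgene lay below all 3 control libraries for each of these 4 genes, whereas none of the other 6 genes was separated in this way. Of all genes in the table, 2.25% had every elav library with a transgene below every elav control library. Among the 271 genes with more than 10000 bases of exon, to which these 4 belong, the share was 12.9%. In head RNA, fewer cells of a type and less RNA per cell cannot be told apart. By immunostaining, the study found no significant difference from control brains in numbers of neurons or glia for TREM2WT/TYROBP and TREM2R47H/TYROBP. The part of cell number in the values here was not tested.

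**Figure D2:**
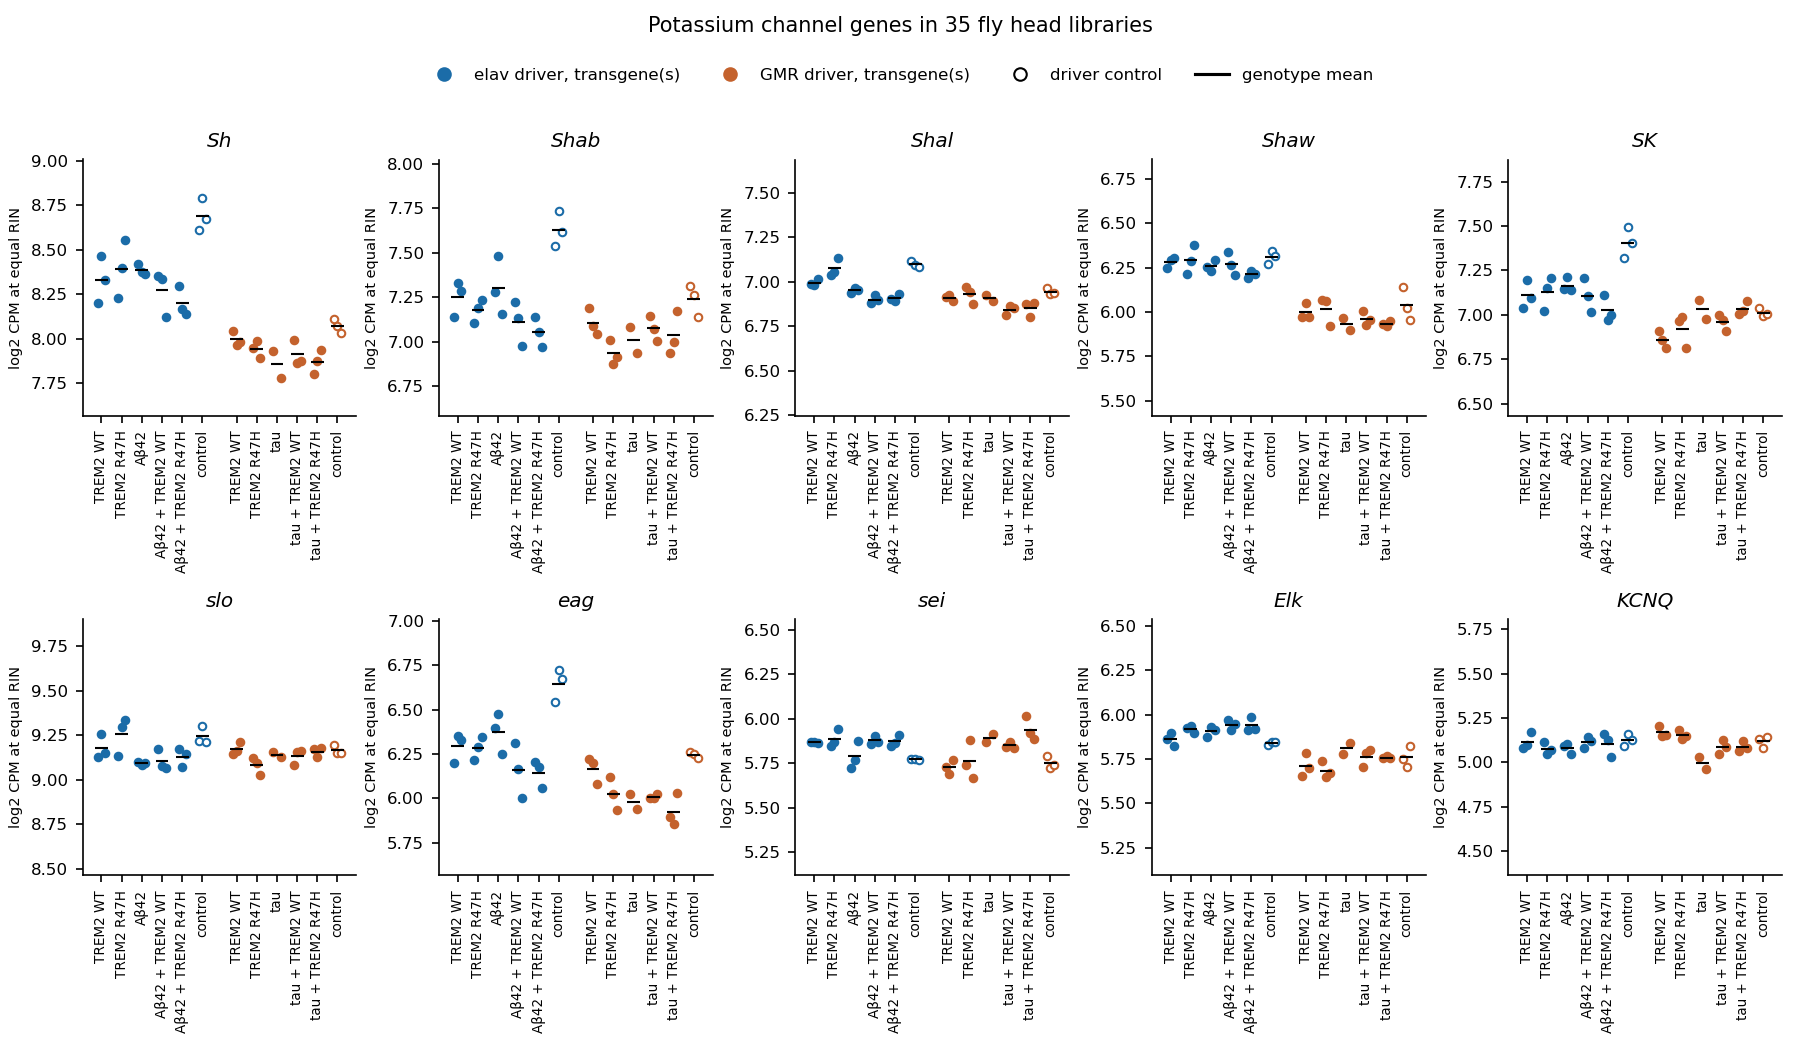
Log2 CPM at equal RIN (vertical axis) of each channel gene in all 35 libraries, by genotype, with 1 point per library and a line at the genotype mean. Blue marks elav and orange GMR libraries, filled points are genotypes with a transgene and open points the driver control, and every panel spans the same number of log2 units. On the elav side of the Sh, Shab, SK and eag panels the 3 open points lie above all 15 filled points.

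The gene Sh (FBgn0003380) lies on the minus strand of chromosome X from 17924307 to 18063247 (BDGP6) and encodes the Kv1 channel Shaker, which carries a fast transient current. In elav TREM2WT/TYROBP heads its 3 libraries had 8.20, 8.46 and 8.33, in TREM2R47H/TYROBP heads 8.23, 8.40 and 8.56, and in Aβ42 heads 8.42, 8.37 and 8.37. In Aβ42/TREM2WT/TYROBP heads the values were 8.35, 8.34 and 8.12 and in Aβ42/TREM2R47H/TYROBP heads 8.30, 8.16 and 8.14, against 8.61, 8.79 and 8.67 in control heads. No library with a transgene reached the lowest control library, and the Aβ42/TREM2R47H/TYROBP libraries were the lowest as a group. The log2 fold changes were -0.36 ± 0.08 (SE) for TREM2WT/TYROBP, -0.30 ± 0.08 for TREM2R47H/TYROBP, -0.31 ± 0.08 for Aβ42, -0.42 ± 0.08 for Aβ42/TREM2WT/TYROBP and -0.49 ± 0.08 for Aβ42/TREM2R47H/TYROBP, with adjusted p-values from limma of 0.00736, 0.0269, 0.00967, 0.00076 and 6.66e-05. Sh thus fell by 28.9% at most, in Aβ42/TREM2R47H/TYROBP heads.

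The gene Shab (FBgn0262593) is on the plus strand of chromosome arm 3L from 2895017 to 2959579 and encodes the Kv2 channel that carries most of the slow delayed rectifier current. Its elav libraries had 7.14, 7.33 and 7.29 with TREM2WT/TYROBP, 7.11, 7.19 and 7.24 with TREM2R47H/TYROBP, and 7.28, 7.48 and 7.15 with Aβ42. With Aβ42/TREM2WT/TYROBP they had 7.22, 7.13 and 6.98 and with Aβ42/TREM2R47H/TYROBP 7.14, 7.06 and 6.97, against 7.54, 7.73 and 7.62 in control heads. Shab had the largest change of the channel genes in each of these 5 comparisons. Its log2 fold changes were -0.38 ± 0.09, -0.45 ± 0.09, -0.32 ± 0.09, -0.52 ± 0.09 and -0.57 ± 0.09 in the same order, with adjusted p-values from limma of 0.00925, 0.00279, 0.0118, 0.000206 and 2.74e-05. In percent, Shab fell by 32.9% in Aβ42/TREM2R47H/TYROBP heads.

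The gene eag (FBgn0000535) is on the plus strand of chromosome X from 14955477 to 15009989 and encodes a voltage-gated channel that gave the ether-a-go-go family its name. Its elav libraries had 6.20, 6.35 and 6.33 with TREM2WT/TYROBP, 6.22, 6.29 and 6.34 with TREM2R47H/TYROBP, and 6.40, 6.48 and 6.25 with Aβ42. With Aβ42/TREM2WT/TYROBP they had 6.31, 6.17 and 6.00 and with Aβ42/TREM2R47H/TYROBP 6.20, 6.18 and 6.06, against 6.54, 6.72 and 6.67 in control heads. Again no library with a transgene overlapped with the control. The log2 fold changes were -0.35 ± 0.08, -0.36 ± 0.08, -0.27 ± 0.07, -0.48 ± 0.08 and -0.50 ± 0.07, with adjusted p-values from limma of 0.0057, 0.00524, 0.016, 8.39e-05 and 2.69e-05.

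The gene SK (FBgn0029761) is on the plus strand of chromosome X from 5340236 to 5405138 and encodes the small-conductance channel that calcium opens. Its elav libraries had 7.04, 7.20 and 7.09 with TREM2WT/TYROBP, 7.02, 7.15 and 7.21 with TREM2R47H/TYROBP, and 7.15, 7.21 and 7.14 with Aβ42. With Aβ42/TREM2WT/TYROBP they had 7.21, 7.11 and 7.02 and with Aβ42/TREM2R47H/TYROBP 7.11, 6.97 and 7.00, against 7.32, 7.50 and 7.41 in control heads. All 15 libraries were again below the control, and the change of SK was the smallest of the 4 genes in each of the 5 comparisons. The log2 fold changes were -0.30 ± 0.06, -0.28 ± 0.06, -0.24 ± 0.06, -0.30 ± 0.06 and -0.38 ± 0.06, with adjusted p-values from limma of 0.0046, 0.00808, 0.00875, 0.00186 and 6.83e-05. In Aβ42 heads SK passed the adjusted p but not the fold change threshold, and it was called in the other 4 comparisons.

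In counts, 4 of the 10 genes were called lower with TREM2WT/TYROBP, where 2.52% of all genes were, and 4 with TREM2R47H/TYROBP, where 2.49% were. With Aβ42 3 of the 10 were called lower, against 3.25% of all genes. With Aβ42/TREM2WT/TYROBP 4 were called lower, against 5.04% of all genes, and with Aβ42/TREM2R47H/TYROBP 4, against 5.89%. The median log2 fold change of the 10 genes was -0.09, -0.04, -0.15, -0.17 and -0.15 in these comparisons, where that of all genes was between -0.01 and 0.00. Between 7 and 8 of the 10 genes had a value below 0 in each comparison. The study had itself reported Sh, Shab and SK as lower with Aβ42/TREM2R47H/TYROBP, also by qPCR. Of these genes its qPCR text named only Sh as slightly lower with Aβ42 alone or TREM2R47H/TYROBP alone. In the libraries here, Shab and SK were also called lower with TREM2R47H/TYROBP alone. The genes were listed with such results known, so the counts are no independent test.

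**Figure D3:**
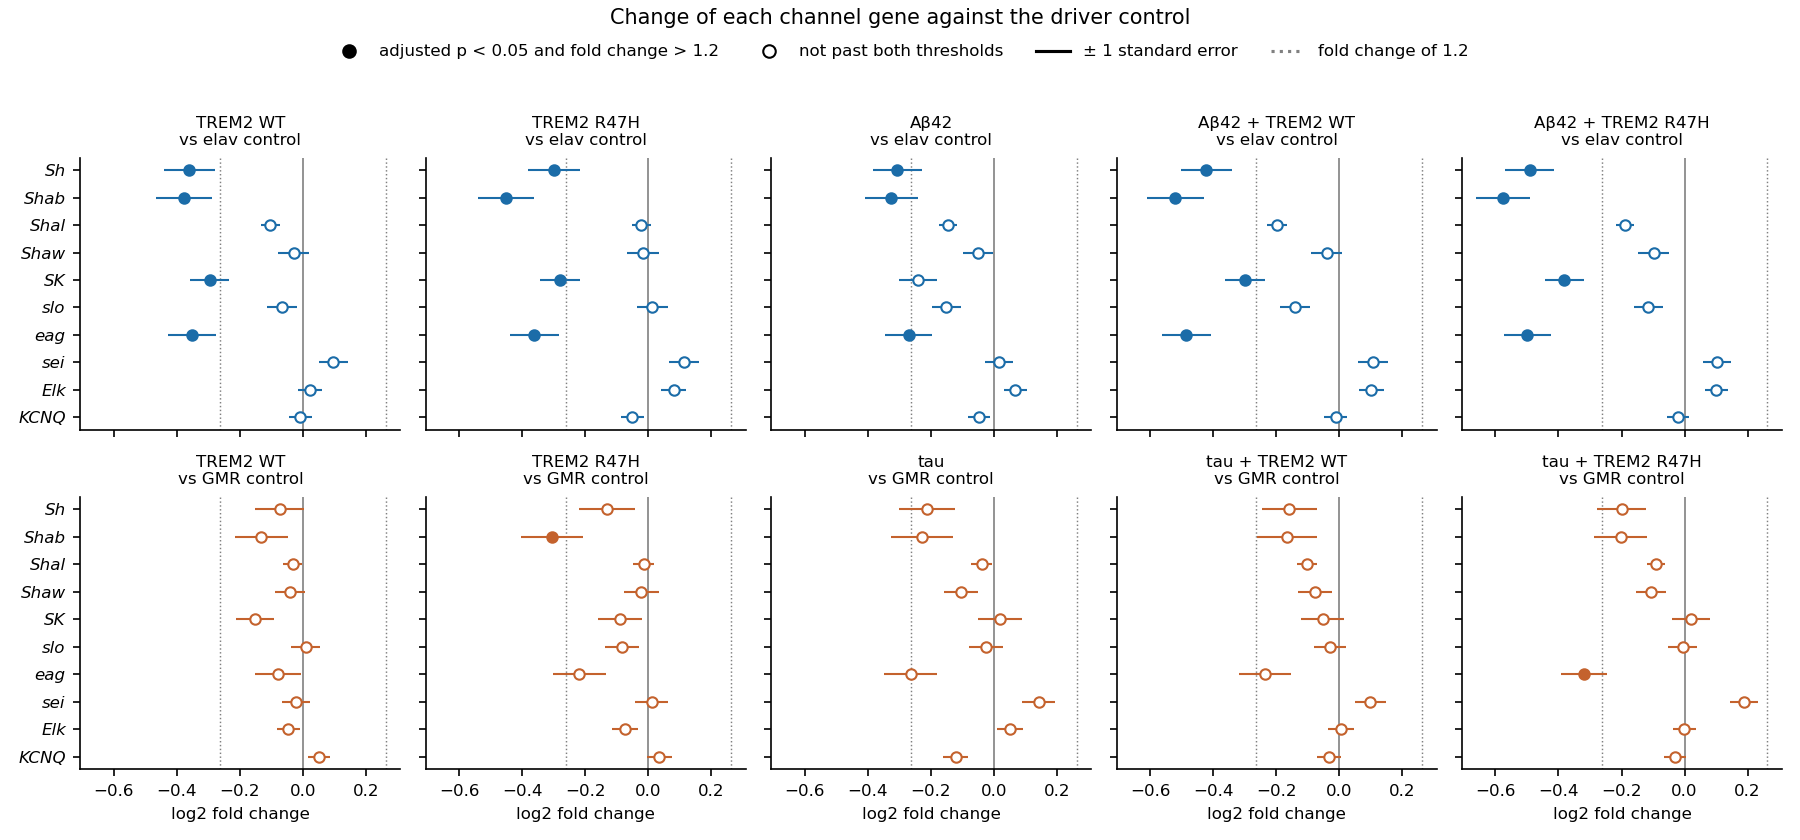
Log2 fold change of each channel gene (horizontal axis, points with ± 1 standard error) in 10 comparisons with the driver control, elav above and GMR below. Filled points had an adjusted p below 0.05 and a fold change above 1.2 (dotted lines). In the elav panels the filled points are Sh, Shab, SK and eag, with SK open for Aβ42, and in the GMR panels only Shab for TREM2 R47H and eag for tau with TREM2 R47H are filled.

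These elav calls depended on which libraries were in the fit. When the 18 elav libraries were fitted alone, none of the 10 genes was called with TREM2WT/TYROBP, TREM2R47H/TYROBP, Aβ42 or Aβ42/TREM2WT/TYROBP. Sh then had -0.30 ± 0.14 with TREM2WT/TYROBP, at an adjusted p of 0.377 from limma. The 4 calls with Aβ42/TREM2R47H/TYROBP held in that fit, with values of -0.45 for Sh, -0.48 for Shab, -0.34 for SK and -0.41 for eag and adjusted p-values of 0.00759 to 0.0188. The control library with the highest values also mattered. Without control replicate 2, 0 genes were called with Aβ42, 2 with TREM2WT/TYROBP and 2 with TREM2R47H/TYROBP. Against control replicate 3 alone, without the 2 control libraries with more yolk protein RNA at equal RIN, the log2 fold changes of Sh, Shab, SK and eag kept their size, at -0.48, -0.57, -0.39 and -0.53 with Aβ42/TREM2R47H/TYROBP. The counts were then 0 with TREM2WT/TYROBP, TREM2R47H/TYROBP and Aβ42 (adjusted p-values of 0.0529 to 0.2 from limma, with larger standard errors) and 4 with both Aβ42/TREM2/TYROBP genotypes. Without TREM2WT/TYROBP replicate 1, 1 gene was called in that comparison, without TREM2R47H/TYROBP replicate 1, 2 were, and without Aβ42 replicate 3, 1 was.

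Of the other 6 genes, Shal came closest to a call. It encodes the Kv4 channel of neuronal cell bodies and dendrites, and its libraries differed little from each other. It had 6.98, 6.98 and 7.01 with TREM2WT/TYROBP, 6.94, 6.96 and 6.95 with Aβ42, 6.88, 6.92 and 6.90 with Aβ42/TREM2WT/TYROBP and 6.91, 6.89 and 6.93 with Aβ42/TREM2R47H/TYROBP, against 7.11, 7.10 and 7.08 in elav control heads. None of these 12 libraries overlapped with the control, but the share of all genes separated over these genotypes is not given here. Over all 15 elav libraries with a transgene, 14 were below the lowest control library for Shal. The log2 fold changes of -0.10 ± 0.03, -0.15 ± 0.03, -0.20 ± 0.03 and -0.19 ± 0.03 passed the adjusted p (0.0355, 0.00114, 5.66e-05 and 4.36e-05, limma) and stayed under the fold change threshold. With TREM2R47H/TYROBP Shal had -0.02 ± 0.03, and its libraries overlapped with the control.

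The gene slo had 9.10, 9.08 and 9.10 in Aβ42 heads, against 9.22, 9.30 and 9.21 in elav control heads. That difference of -0.15 ± 0.05 passed the adjusted p (0.0325, limma) and not the fold change threshold. In the other elav comparisons slo had -0.14 to 0.01, with adjusted p-values of 0.053 to 0.927.

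Shaw, a Kv3 channel that in flies is partly open at rest, had -0.10 to -0.02 in the 5 elav comparisons. KCNQ, the fly member of the family of slow M-type channels, had -0.05 to -0.01. The eag relatives sei and Elk had values above 0 throughout, at 0.02 to 0.11 for sei, the fly channel of the erg type, and 0.02 to 0.10 for Elk. None of these 4 genes passed the adjusted p in any elav comparison, where the lowest value was 0.0596, for Elk with Aβ42/TREM2R47H/TYROBP. Exons of sei overlap genes on the opposite strand (ppk29 and gammaSnap1, over 119 and 359 bases), as do those of KCNQ (CG18011 and asRNA:CR45133, over 265 and 798 bases). The use of strand in counting was not stated, so reads of these pairs may not be told apart.

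Among GMR flies fewer channel genes differed from the control. Shab was called lower with TREM2R47H/TYROBP and eag with tau/TREM2R47H/TYROBP, and in the other 3 comparisons no channel gene was called. The counts of 0, 1, 0, 0 and 1 of the 10 genes for TREM2WT/TYROBP, TREM2R47H/TYROBP, tau, tau/TREM2WT/TYROBP and tau/TREM2R47H/TYROBP stand against 2.19%, 2.93%, 2.86%, 3.22% and 4.08% of all genes called lower. At an unadjusted p below 0.05 in limma there were 1, 2, 5, 2 and 6 of the 10 genes. The shares above do not apply at this looser threshold. That of all genes is not given here, so these counts cannot be read as an excess. The median log2 fold change of the 10 genes was -0.04, -0.08, -0.07, -0.07 and -0.06.

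In GMR heads eag was the gene with the clearest order. Its libraries had 6.22, 6.20 and 6.08 with TREM2WT/TYROBP, 6.12, 6.03 and 5.93 with TREM2R47H/TYROBP, and 6.02 and 5.94 with tau. With tau/TREM2WT/TYROBP they had 6.00, 6.00 and 6.03 and with tau/TREM2R47H/TYROBP 5.89, 5.85 and 6.03, against 6.26, 6.25 and 6.23 in control heads. All 14 GMR libraries with a transgene were below the 3 control libraries for eag, and for no other channel gene, where 1.6% of all genes and 9.59% of those with more than 10000 bases of exon were separated in this way. On the deposited scale, before values were set to equal RIN, this held for 13 of the 14. The log2 fold changes were -0.08 ± 0.07, -0.22 ± 0.08, -0.26 ± 0.08, -0.24 ± 0.08 and -0.32 ± 0.07, with adjusted p-values from limma of 0.592, 0.105, 0.0511, 0.0817 and 0.00322.

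Shab in GMR heads had 7.01, 6.88 and 6.92 with TREM2R47H/TYROBP, against 7.31, 7.26 and 7.14 in control heads. The log2 fold change was -0.31 ± 0.10 at an adjusted p of 0.0477 (limma), just under the threshold. This call was lost without RIN in the model (adjusted p 0.0562), in the fit of GMR libraries alone (0.111), after quantile normalisation (0.0582), and without control replicate 1 (0.141) or 2 (0.113) or TREM2R47H/TYROBP replicate 1 (0.0532), 2 (0.1) or 3 (0.072). In the other 4 GMR comparisons Shab had -0.23 to -0.13 and no call.

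Sh and SK were not called in any GMR comparison. The log2 fold changes of Sh were -0.21 to -0.07, with adjusted p-values of 0.0834 to 0.642 from limma. At equal RIN 13 of the 14 libraries with a transgene were below the lowest control library for Sh, but on the deposited scale only 8 of the 14 were. SK had 7.00, 7.02 and 7.08 with tau/TREM2R47H/TYROBP, against 7.04, 6.99 and 7.00 in GMR control heads, and a log2 fold change of 0.02 ± 0.06. With tau alone SK likewise had 0.02 ± 0.07, on the other side of 0 from the elav comparisons.

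Some smaller differences of GMR heads passed the adjusted p alone. The gene sei had 6.01, 5.92 and 5.88 with tau/TREM2R47H/TYROBP, against 5.79, 5.72 and 5.74 in GMR control heads. Its log2 fold change of 0.19 ± 0.04 (adjusted p 0.00439, limma) was under the fold change threshold. Shal had -0.09 ± 0.03 in the same comparison, at an adjusted p of 0.0314. KCNQ had its lowest values with tau, at 5.03 and 4.97, against 5.13, 5.08 and 5.14 in GMR control heads, a difference of -0.12 ± 0.04 that missed the adjusted p (0.0597).

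Next, TREM2/TYROBP flies were compared with flies of the same driver and transgene, to ask what TREM2/TYROBP adds to Aβ42 or tau. No channel gene was called in any of these 4 comparisons. The counts of 0 stand against 1.67% of all genes called lower for Aβ42/TREM2WT/TYROBP against Aβ42, 2.87% for Aβ42/TREM2R47H/TYROBP against Aβ42, 1.88% for tau/TREM2WT/TYROBP against tau and 1.7% for tau/TREM2R47H/TYROBP against tau. At an unadjusted p below 0.05 in limma, where the share of all genes is not given here, there were 2, 4, 1 and 1 of the 10 genes.

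The largest of these differences were in Aβ42/TREM2R47H/TYROBP heads. There eag had 6.20, 6.18 and 6.06, against 6.40, 6.48 and 6.25 in Aβ42 heads, and a log2 fold change of -0.23 ± 0.07 that passed the adjusted p (0.0391, limma) but not the fold change threshold. Shab had 7.14, 7.06 and 6.97, against 7.28, 7.48 and 7.15, and a log2 fold change of -0.25 (95% interval -0.42 to -0.08, adjusted p 0.0517). The Aβ42 library with the lowest Shab and eag, replicate 3, decided the count. Without it 2 genes were called, and without Aβ42/TREM2R47H/TYROBP replicate 1 there was 1. For Aβ42/TREM2WT/TYROBP against Aβ42, 1 gene was called without Aβ42 replicate 3 and 1 without Aβ42/TREM2WT/TYROBP replicate 1.

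Against tau alone the 4 genes Sh, Shab, SK and eag had -0.07 to 0.06 with tau/TREM2WT/TYROBP and -0.06 to 0.03 with tau/TREM2R47H/TYROBP. The 95% intervals of these differences reached from -0.23 to 0.26. In both comparisons the gene with an unadjusted p below 0.05 was KCNQ, at 0.09 ± 0.04, with adjusted p-values of 0.257 and 0.231.

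TREM2R47H/TYROBP and TREM2WT/TYROBP flies were also compared directly, since R47H is a variant of TREM2 linked to Alzheimer's disease risk. None of the 10 genes was called in elav heads (1.02% of all genes called lower), with Aβ42 (0.672%), in GMR heads (0.959%) or with tau (0.938%). At an unadjusted p below 0.05 in limma there were 1 (Shal, 0.08 ± 0.03), 0, 0 and 0 of the 10 genes. The share of all genes at this threshold is not given here. In elav heads Sh differed by 0.06 (95% interval -0.10 to 0.22), Shab by -0.07 (-0.25 to 0.10), SK by 0.02 (-0.11 to 0.14) and eag by -0.01 (-0.16 to 0.14). The largest difference was that of Shab in GMR heads, at -0.17 (-0.38 to 0.04, adjusted p 0.47).

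Interactions ask whether TREM2/TYROBP and Aβ42 or tau together differ from the sum of their separate changes. No channel gene passed the adjusted p, where 0.238% of all genes did for Aβ42 with TREM2WT/TYROBP, 0.672% for Aβ42 with TREM2R47H/TYROBP, 0.357% for tau with TREM2WT/TYROBP and 0.175% for tau with TREM2R47H/TYROBP. At an unadjusted p below 0.05 in limma, where the share of all genes is not given here, there were 2, 0, 0 and 1 of the 10 genes. These were SK (0.24 ± 0.08, adjusted p 0.459) and Sh (0.25 ± 0.11, 0.674) for Aβ42 with TREM2WT/TYROBP, and Shab (0.33 ± 0.14, 0.404) for tau with TREM2R47H/TYROBP. For Sh, Shab, SK and eag the interaction was above 0 in all 4 cases, but none of these values passed after adjustment. The combined log2 change was thus less negative or more positive than the sum of the separate ones. For Aβ42 with TREM2R47H/TYROBP the values of these genes were 0.11 to 0.20. The study described synaptic transmission genes as synergistically lower in that genotype, from module enrichment and qPCR, which are other measures than this contrast.

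Although more channel genes were called with TREM2/TYROBP in elav than in GMR heads, the difference between drivers passed the test for none of them. For the change with TREM2WT/TYROBP, elav minus GMR, 0 of 10 genes passed the adjusted p (1.82% of all genes did), and for TREM2R47H/TYROBP 0 of 10 (0.469% of all genes). The largest values were those of Sh (-0.29 ± 0.11, unadjusted p 0.0161) and eag (-0.27 ± 0.10, 0.0152) for TREM2WT/TYROBP, with adjusted p-values of 0.249 and 0.244 from limma. For TREM2R47H/TYROBP, Elk had 0.15 ± 0.06 (unadjusted p 0.0202, adjusted p 0.453).

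GMR control heads differed from elav control heads in more channel genes than any genotype with a transgene did from its own control. Lower in GMR control heads were Sh, Shab, Shaw, SK and eag, 5 of the 10 genes, where 11.5% of all genes were called lower. Sh had 8.11, 8.07 and 8.03 in GMR control heads, against 8.61, 8.79 and 8.67 in elav control heads, a log2 fold change of -0.62 ± 0.08 (adjusted p 8.85e-07, limma). Shab had -0.39 ± 0.09, SK -0.39 ± 0.06, eag -0.40 ± 0.07 and Shaw -0.27 ± 0.05, with adjusted p-values of 1.53e-05 to 0.000826. KCNQ (-0.01 ± 0.04) and sei (-0.02 ± 0.05) overlapped between the controls. The sex markers given above differ between the same groups, as does the neuronal marker list introduced further on, with 4 of 8 markers called lower in GMR control heads and a median of -0.26.

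The genes called against a driver control, Sh, Shab, SK and eag, share a feature that the choice of genes did not use, their length. Sh has 22552 bases of exon, Shab 11359, SK 10891 and eag 10636. These are the 4 longest of the 10 genes, and with slo (10153) they belong to the 271 genes of the table with more than 10000 bases. The other 5 have 3278 to 5351 bases. Length did not mark every call, since Shaw (5000) was called between the controls and slo was called in no comparison. Most of the exonic sequence of the 4 genes is untranslated in the annotation. The coding share was 13.4% for Sh, 46.5% for Shab, 38.8% for SK and 36.1% for eag. A low share was no mark of these 4 genes, since Shal (37.3%), Shaw (38.7%) and slo (42%) had similar ones. Only Elk, sei and KCNQ had 72.2% to 80.2%.

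Long genes as a class were called lower more often than the rest in the same comparisons. Of the genes with more than 10000 bases, 14.8% were called lower with TREM2WT/TYROBP in elav heads, 14.8% with TREM2R47H/TYROBP, 15.1% with Aβ42/TREM2WT/TYROBP and 29.5% with Aβ42/TREM2R47H/TYROBP. Over all genes these shares were 2.52%, 2.49%, 5.04% and 5.89%, as given above. With Aβ42 alone the long genes did not stand out, at 2.58% against 3.25% of all genes, although Sh, Shab and eag were called there. Among GMR heads the share of long genes called lower was 12.9% with TREM2R47H/TYROBP and 14% with tau/TREM2R47H/TYROBP, the comparisons with a call for Shab or eag, and 0.369% to 5.9% in the other 3. Between the controls it was 43.9%.

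**Figure D4:**
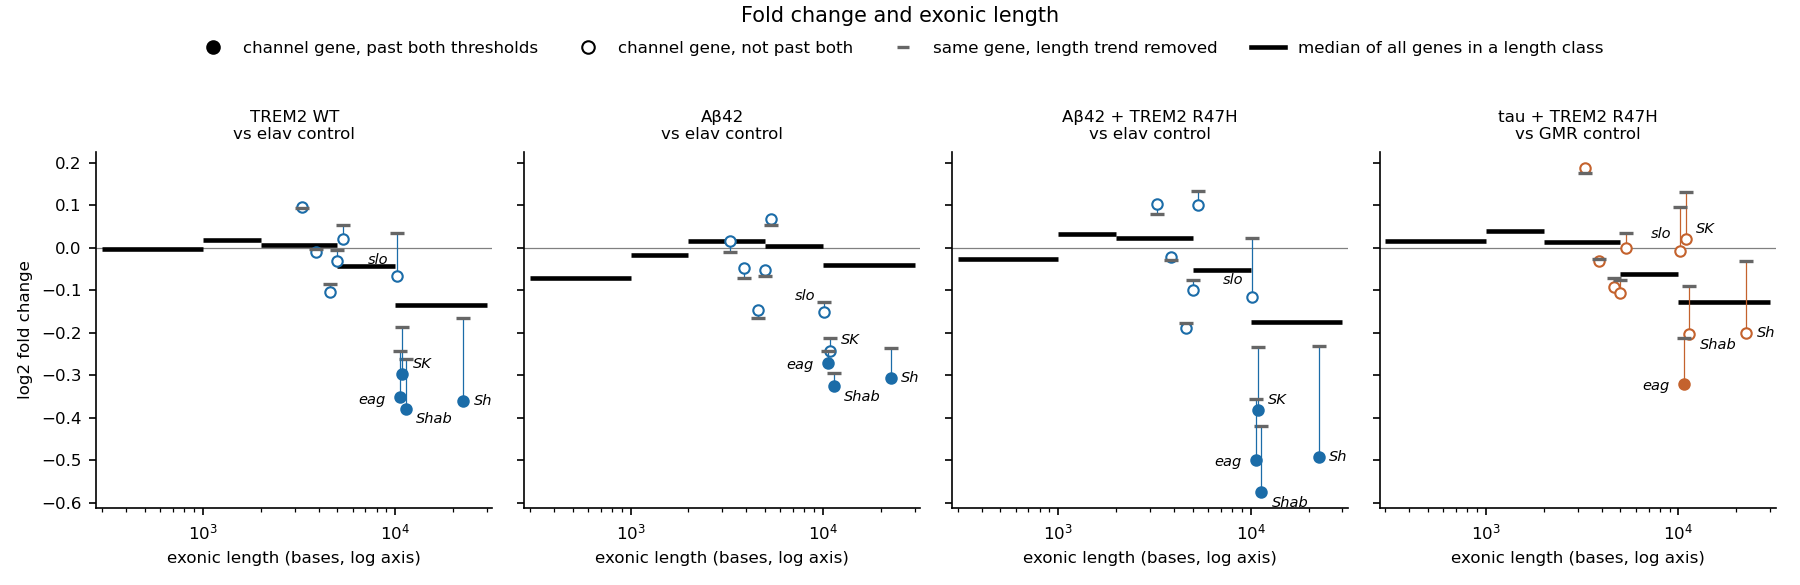
Log2 fold change (vertical axis) against exonic length in bases (horizontal log axis) for the 10 channel genes in 4 comparisons, with filled points for genes past both thresholds. Thick black lines are the median of all genes in 5 length classes (-0.134, -0.0394, -0.175 and -0.127 for the longest class), and grey dashes give each gene after the length trend of each library was removed. Sh moves most towards 0, and Shab and eag stay near -0.42 and -0.35 with Aβ42 and TREM2 R47H.

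When the trend of values with exonic length was removed from each library, an alternative chosen after the data had been seen, smaller differences remained. With Aβ42/TREM2R47H/TYROBP the log2 fold changes were then -0.42 ± 0.06 for Shab, -0.35 ± 0.05 for eag, -0.23 ± 0.04 for SK and -0.23 ± 0.05 for Sh, and their adjusted p-values of 2.27e-05 to 0.00218 passed. Only Shab and eag then also passed the fold change threshold. The counts called lower became 0 with TREM2WT/TYROBP, 2 with TREM2R47H/TYROBP, 1 with Aβ42, 2 with Aβ42/TREM2WT/TYROBP and 2 with Aβ42/TREM2R47H/TYROBP in elav heads. They became 0 for both GMR comparisons with a call and 1 (Sh, -0.32 ± 0.05) between the controls. Whether length, or what varies with it, has a part in the falls was not tested.

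Markers of the neurons that express these channels were also lower in elav heads with a transgene. The summed level of 8 neuronal markers was 11.47 to 11.59 with TREM2WT/TYROBP, 11.51 to 11.63 with TREM2R47H/TYROBP, 11.52 to 11.54 with Aβ42, 11.47 to 11.57 with Aβ42/TREM2WT/TYROBP and 11.41 to 11.49 with Aβ42/TREM2R47H/TYROBP, against 11.66 to 11.74 in elav control heads. No library with a transgene overlapped with the control in this sum. Of single genes, 2.25% were separated in this way, and how often such sums separate was not tested. The numbers of the 8 markers called lower were 2, 2, 0, 2 and 3, led by brp, a scaffold of the synaptic active zone (-0.40 with Aβ42/TREM2R47H/TYROBP), and para, the voltage-gated sodium channel (-0.39). Of all genes 2.52%, 2.49%, 3.25%, 5.04% and 5.89% were called lower in these comparisons, shares that stand beside the glial and muscle counts below too. The list median was -0.15, -0.08, -0.14, -0.15 and -0.24, beside -0.09, -0.04, -0.15, -0.17 and -0.15 for the 10 channel genes. The 8 glial markers had medians of -0.01 to 0.06 and 1 call, with Aβ42. Muscle markers had medians of -0.29 to -0.04, with 2 and 4 of 8 called lower for TREM2WT/TYROBP and Aβ42/TREM2R47H/TYROBP. The yolk protein genes, described at the start, shifted most of all the marker lists. The part of these shifts in the channel results was not tested.

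In GMR heads the 8 neuronal markers had medians of -0.11 to -0.05 and no call in the 5 comparisons, and the yolk protein genes had no call either (log2 fold changes of -0.05 to 0.50). Of 11 photoreceptor markers, 4, 3 and 3 were called lower with tau, tau/TREM2WT/TYROBP and tau/TREM2R47H/TYROBP, where 2.86%, 3.22% and 4.08% of all genes were. None of the 10 channel genes was called with tau alone, in heads whose eye cells make it.

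How far Sh, Shab, SK and eag varied together depended on the libraries compared. Over the 6 elav genotype means the Pearson correlations among them were 0.963 to 0.992, and over the 6 GMR means -0.359 to 0.967. Around the genotype means, over 35 libraries, the correlations among the 4 were 0.685 to 0.869. There the pairs among the other 6 genes had -0.263 to 0.538 and pairs of 1 of the 4 with 1 of the 6 had -0.324 to 0.693, so that the ranges meet. These values are descriptions, since the points share libraries and, in the case of the elav means, 1 control. The 4 genes were grouped because they were lower than that control. High correlations over the elav means therefore follow from the choice of genes. The genes of the whole table whose 12 genotype means were most like those of Sh were Sema-1a (r = 0.992), Rbp6 (0.992) and Fas1 (0.989). For eag they were Ca-alpha1T (0.979), CG11449 (0.976) and Ca-alpha1D (0.97), for SK Cngl (0.96), Ca-beta (0.952) and Vap-33B (0.949), and for Shab CG5062 (0.955), Ir62a (0.948) and app (0.945). For the others the nearest gene was aPKC for Shal (0.967), CG7708 for Shaw (0.989), CR46003 for slo (0.864), CG8726 for sei (0.916), CR44830 for Elk (0.973) and eya for KCNQ (0.902). These are the highest values out of 10140 genes searched over 12 means, which include the difference between the drivers. For Sh the elav means were 8.20 to 8.69 and the GMR means 7.86 to 8.07, with no overlap.

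Related genes were counted from a list of 10 further pore genes, 5 auxiliary genes and 2 subunits of the sodium-potassium pump. The list was chosen and does not cover all such genes, but all of its genes were in the table. Of the pore genes (Shawl, SLO2, Irk1, Irk2, Irk3, Ork1, Task6, Task7, sand and Ih), 1 was called in the 5 elav comparisons with the control. This was sand, a leak channel, at -0.39 ± 0.10 with Aβ42/TREM2R47H/TYROBP, where 5.89% of all genes were called lower. In the 5 GMR comparisons 1 was called, SLO2, a relative of slo, at -0.29 ± 0.06 with TREM2R47H/TYROBP, where 2.93% of all genes were called lower. The medians of the 10 genes were -0.10 to 0.02 over these 10 comparisons.

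The auxiliary genes with a call act on the channels above. The gene dysc, whose product is needed for normal Slo channel expression, had 7.58 in Aβ42/TREM2R47H/TYROBP and 7.72 in Aβ42/TREM2WT/TYROBP heads, against 8.04 in elav control heads. Its log2 fold changes were -0.46 ± 0.05 and -0.31 ± 0.05 (adjusted p 5.73e-07 and 0.000207, limma). The gene qvr, also known as sleepless, encodes a membrane-anchored regulator of Shaker, and had -0.33 ± 0.05 with Aβ42/TREM2R47H/TYROBP and -0.28 ± 0.05 with Aβ42. Hk, the beta subunit of Shaker, Slob, which binds Slo, and SKIP, which binds Shal, had no call in the 10 comparisons with a driver control. Between the controls qvr, Slob and dysc were lower in GMR heads (-0.42, -0.29 and -0.52), where 11.5% of all genes were called lower.

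Atpalpha, the catalytic subunit of the sodium-potassium pump, which restores the gradients that these channels use, was called lower with TREM2WT/TYROBP (-0.27 ± 0.05), TREM2R47H/TYROBP (-0.28 ± 0.05) and Aβ42/TREM2R47H/TYROBP (-0.27 ± 0.05) in elav heads. The neuronal beta subunit gene nrv3 was called higher with TREM2R47H/TYROBP (0.31 ± 0.08). Neither was called in GMR heads against the GMR control.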

How the data were processed

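The data are 35 RNA-seq libraries of pooled heads, in 12 genotypes given by the labels. The authors depleted ribosomal RNA, primed with random hexamers, aligned reads to BDGP6 with STAR 2.5.0b and counted them per gene with featureCounts. Per the study's methods, a gene was kept if any library had 5 or more reads, and libraries were scaled by TMM. The deposited table holds log2 CPM, named as RIN-adjusted, for 14279 genes, with each gene's exonic length. It holds no counts, so the depth behind each value is unknown.

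In R 4.3.3, limma 3.58.1 was fitted to the log2 values of all libraries with 1 coefficient per genotype and RIN as covariate (22 residual degrees of freedom). RIN was kept because the deposited values no longer depended on it over all libraries but did within genotypes. p-values were Benjamini-Hochberg adjusted over 14279 genes. A gene was called at an adjusted p below 0.05 and a fold change above 1.2 (interactions and driver differences at the adjusted p alone). The text names the 10 members with their values. Of the genes on the further lists it names only some that were called, mostly against a driver control. There were 23 planned comparisons and 2 added later, the driver differences. Levels per kilobase used the exonic length. The script was tested on simulated data.

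The members and lists were chosen with earlier results of these data known. Gene positions came from the BDGP6 annotation, which held 14019 of the 14279 IDs. No sequence was read. Alternatives were no RIN covariate, libraries of the same driver only, a filter that kept genes whose log2 mean was 0 or higher, a pseudocount of 1 added to CPM, quantile normalisation, a replicate block and each library left out. Removal of a length trend per library (lowess, span 30%) and removal of 2 elav control libraries were chosen after seeing the data. Replicate numbers were checked for pairing: deviations of same-numbered libraries correlated above 0.1 in every pair only for GMR tau/TREM2R47H/TYROBP with the GMR control (r = 0.171 to 0.463, 3 pairs). This rests on the data, since the labels give the numbers no shared origin.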

Additional observations from a re-analysis of the deposited data

How the results depend on the processing

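No called log2 fold change of a channel gene changed direction under the alternatives run. Values that were not called could: with the length trend removed, 36 of the 250 values of the 10 genes changed sign, each of at most 0.185 in size. Of 179 counts of called channel genes under the alternatives other than 1 library left out, 159 stayed within 1.5 times the reported count, and of 196 log2 fold changes of single called genes 146 kept their call and 50 lost it. With only the libraries of the same driver, the counts became 0 for elav TREM2WT/TYROBP, TREM2R47H/TYROBP, Aβ42 and Aβ42/TREM2WT/TYROBP and for GMR TREM2R47H/TYROBP, each against its control. The GMR TREM2R47H/TYROBP count was also 0 without the RIN covariate and 0 after quantile normalisation. For GMR tau against its control, 1 gene was called with the filter on the mean log2 value and 1 after quantile normalisation. With the length trend removed the counts were 0, 2, 1, 2 and 2 for the elav genotypes in the order TREM2WT/TYROBP, TREM2R47H/TYROBP, Aβ42, Aβ42/TREM2WT/TYROBP and Aβ42/TREM2R47H/TYROBP, 0 for GMR TREM2R47H/TYROBP, 0 for GMR tau/TREM2R47H/TYROBP and 1 for the GMR control against the elav control. With elav control replicates 1 and 2 removed together they were 0 for elav TREM2WT/TYROBP, 0 for TREM2R47H/TYROBP and 0 for Aβ42, where fewer libraries gave larger standard errors. For the other changes the cause was not tested.

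Leaving out each library in turn, the count was 1 to 4 for elav TREM2WT/TYROBP, 2 to 4 for TREM2R47H/TYROBP, 0 to 4 for Aβ42, 3 to 4 for Aβ42/TREM2WT/TYROBP and 4 for Aβ42/TREM2R47H/TYROBP against the control. It was 0 to 1 for Aβ42/TREM2WT/TYROBP and 0 to 2 for Aβ42/TREM2R47H/TYROBP against Aβ42. It was 0 to 1 for GMR TREM2R47H/TYROBP, 1 to 2 for GMR tau/TREM2R47H/TYROBP (2 without its replicate 3) and 4 to 5 between the controls. In all other comparisons it was 0. A genotype left with 1 library is assumed to vary like the others.

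With a replicate block and the RIN covariate, the number of channel genes called was 4, 4, 3, 4 and 4 in the elav and 0, 1, 0, 0 and 1 in the GMR comparisons with the control, so the block changed no count of channel genes. The numbers paired the samples only for GMR tau/TREM2R47H/TYROBP, where the block gave 1 call. Quantile normalisation moved the median of all genes by less than 0.1. Depth limits could not be given, since the values hold no counts, and the spread was estimated from 2 or 3 libraries per genotype.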
